A study of Mus musculus with 10 samples.

Results

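Expression of Ccn1, Ccn2, Ankrd1, Edn1, F3, Egr1, Amotl2, Lats2 and Thbs1 was measured in primary mouse hepatocytes given glucagon, with and without depletion of WDR5 or KAT2B. These 9 genes, of 16401 with an array feature carrying exactly 1 gene symbol, are known targets of the co-activator YAP, of the transcription factor SRF, or of both. They were chosen by symbol as genes of that kind lowered by glucagon in these libraries, and for each the feature with the highest mean over the 10 libraries was taken. Each had a single feature, and all 9 passed the filter on low values. Since the glucagon values chose the genes, those values are given as a description with no test, and tests are kept for the hairpins and for differences between arms.

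YAP and its paralogue TAZ (Wwtr1) are co-activators that bind TEAD factors on DNA. The Hippo kinases LATS1 and LATS2 phosphorylate them and keep them out of the nucleus, and several of their targets, such as Ccn1, Ccn2 and Ankrd1, serve as common readouts of YAP activity. SRF binds the CArG box and is driven by MRTF co-activators, which sense actin, or by ternary complex factors downstream of MAP kinase, the route that induces immediate early genes such as Egr1. Glucagon, the hormone of fasting, raises cyclic AMP in hepatocytes, and protein kinase A is known to activate the LATS kinases.

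The hepatocytes came from male C57BL6/J mice aged 10 weeks and were transduced for 72 hours with adenovirus at 2 to 4 plaque-forming units per cell. The short hairpin RNA it carried was non-specific (shNS), against Wdr5 (shWDR5) or against Kat2b (shKAT2B). Cells then received 100 nM glucagon or phosphate-buffered saline (PBS) for 90 minutes, so every group, the controls included, had been transduced. The shNS arm had 2 libraries, A and B, for each treatment, and each depleted arm had 2 for glucagon and 1, lettered A, for PBS. Each of the 10 libraries pooled RNA of 3 culture dishes, and no label says that the letters are separate animals. WDR5 is a core subunit of histone H3 lysine 4 methyltransferase complexes, and KAT2B is a histone acetyltransferase.

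Library medians lay between 282.1 and 298.2 on the linear intensity scale. Arrays give no read depth, and precision is limited by the number of libraries. The targeted genes were lower under their hairpins, Wdr5 by a log2 difference of -1.74 ± 0.07 (adjusted p = 1.34e-05) and Kat2b by -2.70 ± 0.09 (adjusted p = 2.76e-06). What the treatments and hairpins did not account for split the libraries into a first set of 4, namely library A of both shNS groups and of the glucagon group of each depleted arm, and a second set of 6 with 1 library of each group. The first residual component, whose sign gave the split, held 78.0% of the residual variance. Of the 9 genes, 8 were lower in the second set, by a median log2 difference of -0.24 against -0.07 over all genes tested, and Amotl2 was lower by -0.80 and Ccn2 by -0.47. Of 10 hepatocyte markers 9 passed the filter on low values, and so did 14 of 15 Kupffer cell and leukocyte markers, 13 of 14 endothelial markers, 12 of 15 stellate cell and fibroblast markers and 3 of 7 cholangiocyte markers. Kupffer cell and leukocyte markers were higher in the second set in 14 of 14 cases and stellate cell and fibroblast markers in 0 of 12, and their part in the results below was not tested except where a value is given. In RNA from such cultures, fewer cells of a type and less RNA per cell cannot be told apart.

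The promoters are shown because the genes are grouped here by the factors known to bind them. RefSeq's promoter table for the GRCm38.p6 build held 6 of the 9 genes, with 7 promoters, and no entry for Ccn2, Egr1 or Thbs1. Each window below is the 250 bases before a transcription start, 5′ to 3′ on the gene's own strand. Capitals mark matches to the TEAD motif GGAATG on either strand (read as CATTCC on the minus strand) or, in F3, to the AP-1 motif TGANTCA. Ccn1 lies at chr3:145649986-145650235 (minus strand), Ankrd1 at chr19:36119845-36120094 (minus strand), Edn1 at chr13:42301226-42301475 (plus strand), Amotl2 at chr9:102717554-102717803 (plus strand) and F3 at chr3:121723287-121723536 (plus strand).
Ccn1: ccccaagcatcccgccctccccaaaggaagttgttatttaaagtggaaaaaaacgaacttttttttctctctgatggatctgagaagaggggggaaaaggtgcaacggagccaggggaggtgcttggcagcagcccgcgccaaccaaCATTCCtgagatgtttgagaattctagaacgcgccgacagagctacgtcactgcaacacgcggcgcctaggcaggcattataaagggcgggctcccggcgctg
Ankrd1: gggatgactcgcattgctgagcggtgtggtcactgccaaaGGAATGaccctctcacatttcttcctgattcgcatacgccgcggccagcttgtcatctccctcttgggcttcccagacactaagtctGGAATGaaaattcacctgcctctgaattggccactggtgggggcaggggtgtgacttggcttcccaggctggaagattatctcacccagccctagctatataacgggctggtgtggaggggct
Edn1: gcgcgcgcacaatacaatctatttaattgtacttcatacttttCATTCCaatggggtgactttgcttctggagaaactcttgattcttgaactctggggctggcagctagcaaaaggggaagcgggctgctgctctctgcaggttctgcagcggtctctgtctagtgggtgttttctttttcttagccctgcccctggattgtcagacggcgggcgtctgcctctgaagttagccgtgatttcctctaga
Amotl2: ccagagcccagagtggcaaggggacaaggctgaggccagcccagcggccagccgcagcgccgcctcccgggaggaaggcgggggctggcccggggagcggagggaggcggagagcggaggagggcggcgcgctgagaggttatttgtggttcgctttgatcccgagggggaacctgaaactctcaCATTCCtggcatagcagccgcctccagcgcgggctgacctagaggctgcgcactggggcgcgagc
F3: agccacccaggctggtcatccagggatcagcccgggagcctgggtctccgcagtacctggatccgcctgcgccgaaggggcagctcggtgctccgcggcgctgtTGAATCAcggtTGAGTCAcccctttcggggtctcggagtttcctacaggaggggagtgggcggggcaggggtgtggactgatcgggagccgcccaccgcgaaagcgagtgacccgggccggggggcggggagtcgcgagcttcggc

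The TEAD motif was found in 4 of the 6 genes, against 14.4% of the 27025 genes with a promoter of the same length in the table. Its match ended 98 bases before the start in Ccn1, 202 in Edn1 and 60 in Amotl2, and Ankrd1 held 2 matches, which ended 205 and 118 bases before it. Among the 6 the AP-1 motif was found in F3, with 2 matches that ended 140 and 129 bases before the start, and over all genes in 7.82%. The CArG box was found in 0 of the 7 promoters, which do not include one of Egr1, and in 1.47% of all promoters of the table. The cAMP response element TGACGTCA was likewise found in 0 of the 7 and in 1.55% of all. Its shorter core TGACG, which overlaps it, was found in Ccn1 and in 1 of the 2 promoters of Lats2, that is in 2 of the 6 genes, and over all genes in 19.8%. These matches describe letters in a short window and say nothing of binding. The list was drawn from known targets of YAP or SRF, so nothing is read from its share with a TEAD motif.

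Glucagon libraries stood below the PBS libraries of the same arm, with no overlap, in all 3 arms for 6 of the 9 genes: Ccn1, Ccn2, Ankrd1, Edn1, F3 and Egr1. Over all 11480 genes tested the same was true of 1.84%, and since glucagon chose the genes nothing is read from the count. Counted by arm, 8 of the 9 stood lower in shNS (7.92% of all genes), 7 in shWDR5 (21.3%) and 6 in shKAT2B (19.8%), and the shared difference was below 0 for all 9 (42.8%). Amotl2 stood lower in shNS, Lats2 in shWDR5 and Thbs1 in shNS, each in that arm and in no other, and Lats2 and Thbs1 stood higher in shKAT2B. The description as genes lowered by glucagon therefore holds in these libraries for 6 of the 9 in every arm.

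**Figure D1:**
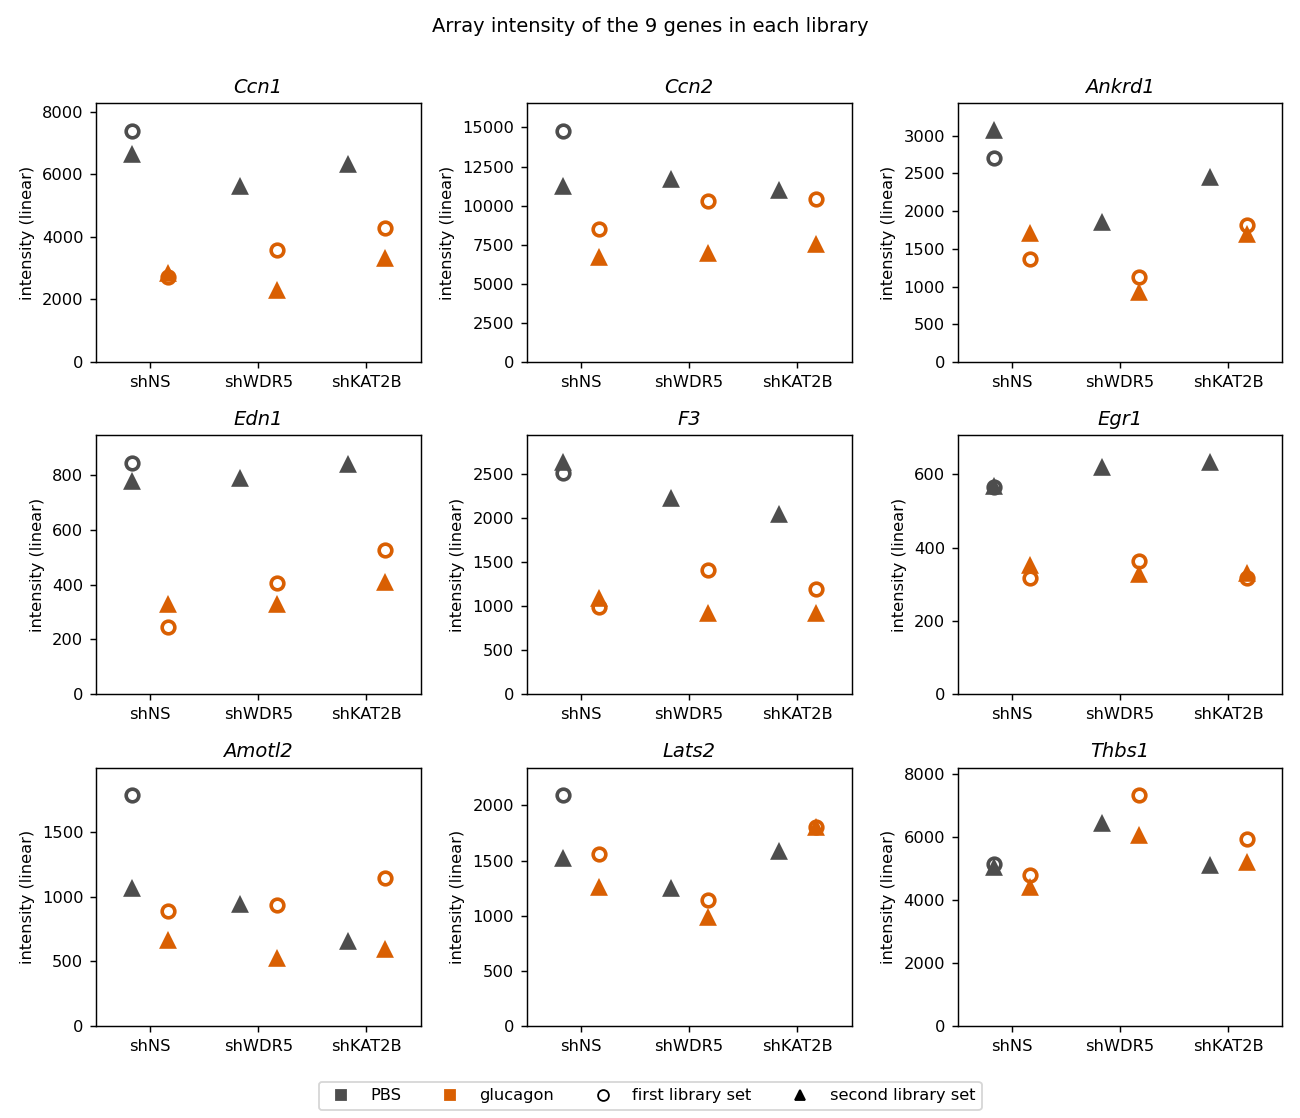
Linear array intensity of each gene in each of the 10 libraries, by hairpin on the horizontal axis, with PBS in grey and glucagon in orange, open circles for the first library set and filled triangles for the second. For Ccn1, Ccn2, Ankrd1, Edn1, F3 and Egr1 every glucagon point lies under the PBS points of its arm, while Thbs1 and Lats2 in shKAT2B have their glucagon points above PBS.

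Among the secreted products, Edn1 encodes the precursor of the vasoconstrictor endothelin 1. Its intensity was 843 and 776 in shNS PBS and 246 and 326 in shNS glucagon. It was 787 in shWDR5 PBS against 407 and 326 with glucagon, and 838 in shKAT2B PBS against 526 and 405. The PBS libraries of all arms lay above every glucagon library. On the log2 scale the glucagon difference shared by the arms was -1.21 ± 0.14 (model standard error), the lowest of all 11480 genes tested. Fitted glucagon levels, as a share of PBS, were 35.1% (shNS), 46.4% (shWDR5) and 55.1% (shKAT2B). In each depleted arm these percentages set glucagon libraries of both sets against a PBS library of the second set. Second-set libraries alone, 1 a group, gave log2 differences of -1.25 (shNS), -1.27 (shWDR5) and -1.05 (shKAT2B).

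Ccn1 (Cyr61) encodes a matricellular protein that signals through integrins. It measured 7383 and 6608 in shNS PBS and 2702 and 2817 in shNS glucagon, 5595 in shWDR5 PBS against 3566 and 2272, and 6295 in shKAT2B PBS against 4270 and 3281. Its highest glucagon value, in shKAT2B, lay below its lowest PBS value, in shWDR5. The shared difference was -1.07 ± 0.15, the third lowest of all genes. The share of the PBS level left was 39.5% (shNS), 50.9% (shWDR5) and 59.5% (shKAT2B), with the same mix of sets. Within the second set alone the log2 differences were -1.23 (shNS), -1.30 (shWDR5) and -0.94 (shKAT2B).

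Ccn2 (Ctgf), a related matricellular protein and fibrosis factor, measured 14766 and 11191 in shNS PBS and 8481 and 6654 in shNS glucagon. It measured 11666 in shWDR5 PBS against 10298 and 6937, and 10960 in shKAT2B PBS against 10441 and 7486. The library sets separate here: in both depleted arms the glucagon library of the first set lay close to the lone PBS library, which belongs to the second set. The shared difference was -0.55 ± 0.16, and -0.69 with the library set as a term in the model.

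Thbs1 encodes thrombospondin 1, which activates latent TGF beta. It measured 5149 and 5008 in shNS PBS and 4804 and 4390 in shNS glucagon, 6427 in shWDR5 PBS against 7332 and 6039, and 5078 in shKAT2B PBS against 5956 and 5185. No common direction is seen, and the shared difference of -0.01 ± 0.08 ranked 4338 of 11480 from the lowest.

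F3 encodes tissue factor, the receptor that starts blood coagulation. It measured 2521 and 2629 in shNS PBS and 996 and 1082 in shNS glucagon, 2226 in shWDR5 PBS against 1409 and 910, and 2034 in shKAT2B PBS against 1201 and 910. All PBS values lay above all glucagon values. The shared difference was -1.11 ± 0.14, the second lowest of all genes, with between 40.4% and 51.4% of the PBS level left in the arms.

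Among the nuclear proteins, Ankrd1 encodes an ankyrin repeat cofactor that is a strong YAP target. It measured 2702 and 3062 in shNS PBS and 1361 and 1698 in shNS glucagon, 1846 in shWDR5 PBS against 1128 and 910, and 2436 in shKAT2B PBS against 1820 and 1687. Within each arm the groups did not overlap, yet the PBS value of shWDR5 lay close to the glucagon values of shKAT2B. The shared difference was -0.78 ± 0.11, with 52.9% of the PBS level left in shNS, 54.9% in shWDR5 and 72.0% in shKAT2B. Within the second set alone the log2 differences were -0.85 (shNS), -1.02 (shWDR5) and -0.53 (shKAT2B).

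Egr1, a zinc finger factor and immediate early gene driven by SRF, measured 564 in both shNS PBS libraries and 317 and 350 in shNS glucagon. It measured 617 in shWDR5 PBS against 365 and 326, and 630 in shKAT2B PBS against 317 and 329. The glucagon libraries of all arms lay close together, between 317 and 365. The shared difference was -0.84 ± 0.07, the smallest standard error among the 9 genes, and its value in shKAT2B (-0.96) was more negative than in shWDR5 (-0.84) and shNS (-0.76).

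Amotl2 and Lats2 encode inhibitors of YAP that YAP itself induces, an angiomotin that holds YAP in the cytoplasm and a Hippo kinase. Amotl2 measured 1783 and 1060 in shNS PBS and 891 and 662 in shNS glucagon, 936 in shWDR5 PBS against 936 and 519, and 648 in shKAT2B PBS against 1144 and 592. In each group with 2 libraries the one of the first set was the higher. Its shared difference was -0.38 ± 0.29, and -0.61 with the library set as a term.

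Lats2 measured 2091 and 1510 in shNS PBS and 1563 and 1252 in shNS glucagon, 1243 in shWDR5 PBS against 1144 and 982, and 1574 in shKAT2B PBS against 1808 and 1795. The groups overlapped in shNS, glucagon was lower in shWDR5 and glucagon was higher in shKAT2B. Its shared difference was -0.16 ± 0.13.

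The 6 genes lower in every arm also varied together over the libraries: the 15 correlations between them ran from 0.64 to 0.96 over 10 libraries that share arms, treatments and library sets, and all 8 correlations of Thbs1 with the other genes lay between -0.46 and 0.25. These are descriptions of genes chosen for a shared fall. No marker of the 3 other main liver cell types was called under glucagon. Kupffer cell and leukocyte markers had a median log2 difference of -0.16 (0.05 with the library set as a term), endothelial markers -0.10 (0.03) and stellate cell and fibroblast markers 0.13 (0.04). In the shKAT2B arm the medians were -0.36 (14 of 14 below 0), -0.18 (13 of 13) and 0.24 (0 of 12), and with the library set as a term -0.02, -0.03 and 0.06. Their summed intensity overlapped between the treatments, at 8222 to 16249 in PBS and 8066 to 17506 in glucagon for Kupffer cell and leukocyte markers, 4948 to 7828 and 4919 to 8212 for endothelial markers, and 7612 to 10561 and 7774 to 10888 for stellate cell and fibroblast markers.

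Whether depletion changed the fall was asked by testing the difference of the glucagon response between arms. No gene of the 9 passed for either hairpin against shNS or for the hairpins against each other, as no gene did among all 11480 (0%). At an unadjusted p below 0.05 the count was 0 of the 9 genes in each of the 3 comparisons, against 20, 36 and 20 of all genes. In the fit with a library set term, read from the same libraries, it was 6 of the 9 for shKAT2B minus shNS, 0 for shWDR5 minus shNS and 2 for shKAT2B minus shWDR5, against 280, 255 and 453 of all 11480 genes. The shNS libraries used here also helped choose the genes.

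**Figure D2:**
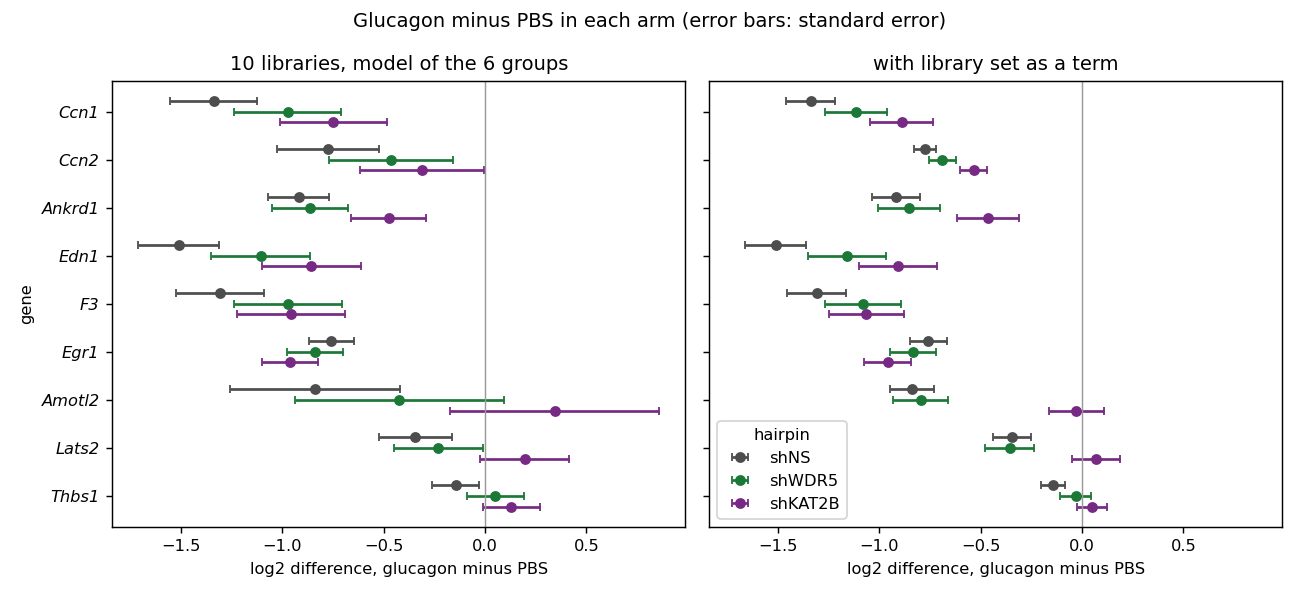
Log2 difference of glucagon minus PBS for each gene in the shNS, shWDR5 and shKAT2B arms, with bars for the standard error, from the 10 libraries (left) and with the library set as a term (right). Values for shKAT2B lie to the right of those for shNS in every gene but Egr1, and for Amotl2, Lats2 and Thbs1 they lie above 0 on the left.

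In shKAT2B the glucagon response was less negative than in shNS in 8 of the 9 genes, Egr1 being the exception, where 62.5% of all genes tested had a difference above 0. The count was also 8 with the library set as a term and 8 within the second library set, where each group has 1 library. The difference was 1.18 for Amotl2 (95% interval -0.39 to 2.76), 0.65 for Edn1 (-0.09 to 1.40), 0.59 for Ccn1 (-0.22 to 1.40), 0.44 for Ankrd1 (-0.12 to 1.01) and -0.20 for Egr1 (-0.63 to 0.22). All 9 intervals held 0. Those of Ccn1, Ccn2, Ankrd1, Amotl2, Lats2 and Thbs1 reached past the whole difference of the gene in shNS, which was -0.84 for Amotl2. With the library set as a term the standard errors were smaller, Amotl2 stood at 0.81 ± 0.17 and Ankrd1 at 0.45 ± 0.19, and no gene of the 9 was called (lowest adjusted p = 0.591; 0.0174% of all genes were). The library set as a term called 0 of the 9 and 0% of all genes in the other comparisons of responses. Within the second set the differences were 0.55 for Amotl2, 0.46 for Lats2, 0.32 for Ankrd1 and 0.29 for Ccn1. Over the 10 libraries 2 of 14 further YAP and TEAD targets lay below 0 in this contrast, against 4303 of all 11480 genes. Of 21 Hippo pathway genes, Amotl2 and Lats2 included, 1 did, and of 20 cytoskeletal SRF and MRTF targets 7. Of 13 other immediate early genes 9 did, and of 9 cyclic AMP response genes 9, with a median of -0.69. In the same contrast the median was -0.47 for Kupffer cell and leukocyte markers (14 of 14 below 0), -0.25 for endothelial markers (12 of 13) and 0.18 for stellate cell and fibroblast markers (0 of 12), none called, and -0.04, -0.09 and 0.06 with the library set as a term. The part of these cells in the responses was not tested.

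In shWDR5 the sign of the difference from shNS depended on the libraries. Over the 10 libraries 8 of the 9 genes had a less negative response than in shNS, where 56.2% of all genes had a difference above 0, by 0.40 for Edn1 (95% interval -0.34 to 1.15), 0.36 for Ccn1 (-0.44 to 1.17) and 0.06 for Ankrd1 (-0.51 to 0.62). Of the 9, 7 lay above 0 with the library set as a term. Within the second set 1 of the 9, Thbs1, did, and the response of Ccn1 was -1.23 in shNS and -1.30 in shWDR5.

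The replicate letter gave another answer. With the letters A and B as a block, 2 of the 9 genes were called for a changed response in shWDR5, Ccn2 and Amotl2, where 4.75% of all genes were. In shKAT2B 5 were called, Ccn1, Ccn2, Amotl2, Lats2 and Thbs1, where 12.1% of all genes were, and all were less negative than in shNS (lowest adjusted p = 0.00145). The lone PBS libraries of both depleted arms are lettered A but lay with the B libraries in the residual split, so the block and the library set disagree on them. These calls are those of a fit that sets both lone PBS libraries with the first set.

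**Figure D3:**
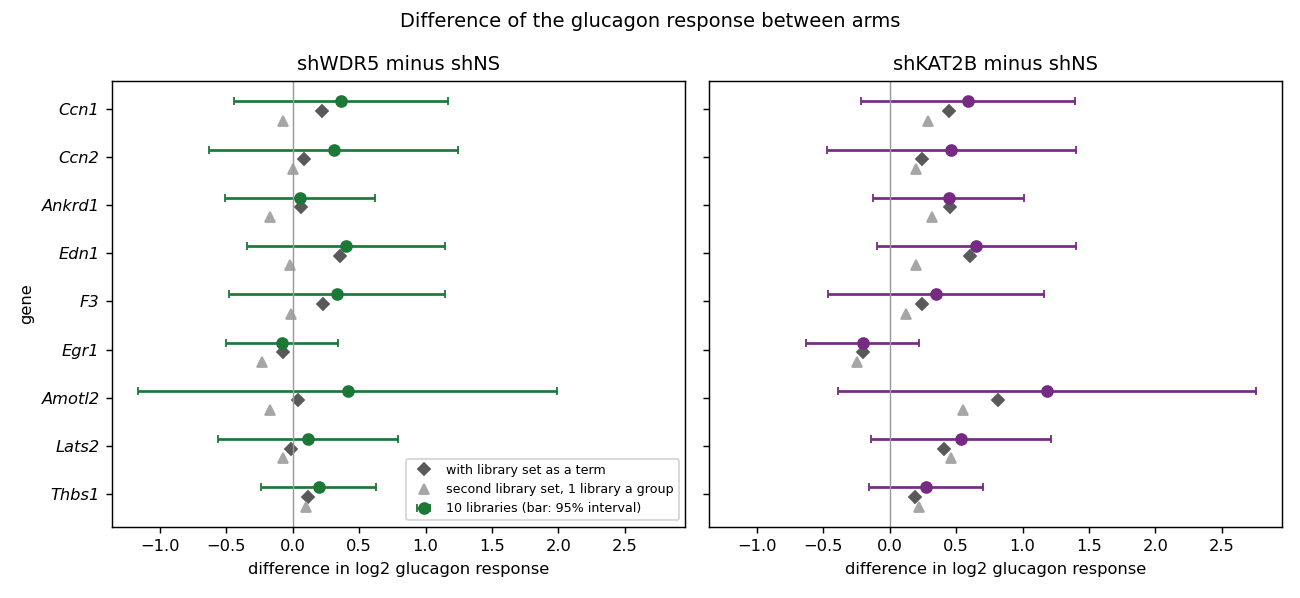
Difference of the log2 glucagon response from shNS in shWDR5 (left) and shKAT2B (right): circles with 95% intervals from the 10 libraries, diamonds with the library set as a term and triangles within the second library set. All intervals hold 0. In shKAT2B all 3 values lie above 0 for every gene but Egr1, and in shWDR5 most triangles lie at or left of 0.

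Levels between hairpins, which did not choose the genes, were compared over both treatments. With shWDR5, Ankrd1 fell and Thbs1 rose, 2 of the 9 genes, where 10.9% of all genes tested were called. Ankrd1 differed from shNS by -0.63 ± 0.13 (95% interval -0.91 to -0.34, adjusted p = 0.0160), with all shWDR5 libraries below the shNS libraries of the same treatment. Thbs1 differed by 0.45 ± 0.09 (0.25 to 0.65, adjusted p = 0.0158), with all shWDR5 libraries above. A share of 15.5% of all genes separated downward under both treatments in this way, and 15.2% upward. The call of Ankrd1 ended on leaving out shWDR5 glucagon B (adjusted p = 0.0612) or the lone PBS library of that arm (0.0746), and that of Thbs1 on leaving out the lone PBS library of shWDR5 (0.0746) or shNS glucagon A (0.0577). Within library sets Ankrd1 differed by -0.73 in PBS (second set) and by -0.27 and -0.90 with glucagon (first and second set). Thbs1 differed by 0.36 in PBS and by 0.61 and 0.46 with glucagon, so neither changed sign.

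Lats2 also lay below shNS in all shWDR5 libraries, by -0.47 ± 0.15, and did not pass (adjusted p = 0.0810). It was called beside Ankrd1 and Thbs1 with the library set as a term (-0.41, adjusted p = 0.00377, where 36.8% of all genes were called) and with the replicate block (-0.51, adjusted p = 0.0147, where 26.7% were). Lats2 was also called after quantile normalization (-0.47, adjusted p = 0.0457) and with median-centred libraries (-0.46, adjusted p = 0.0492). The share of all genes called in those fits is not given here. Edn1, F3, Egr1, Ccn1, Ccn2 and Amotl2 did not pass. Their intervals were narrowest for Egr1, at -0.09 to 0.27, and widest for Amotl2, at -1.13 to 0.42.

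With shKAT2B 0 of the 9 genes were called against shNS, where 15.6% of all genes tested were, and 1 of the 9, Edn1, had an unadjusted p below 0.05. Edn1 stood 0.43 ± 0.17 above shNS (95% interval 0.05 to 0.82, adjusted p = 0.127), Ankrd1 at 0.03 (-0.25 to 0.32) and Amotl2 at -0.37 (-1.14 to 0.40). With the library set as a term 3 were called higher, Edn1 (0.47, adjusted p = 0.0146), Thbs1 (0.20, 0.00573) and Ccn2 (0.14, 0.0341), where 21.5% of all genes were called higher.

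The hairpins differed from each other in Ankrd1 and Lats2, where 22.7% of all genes tested were called. Ankrd1 was higher in shKAT2B than in shWDR5 by 0.66 ± 0.13 (adjusted p = 0.00751), a call that no omitted library ended, and Lats2 by 0.62 ± 0.16 (adjusted p = 0.0210). Lats2 lost its call on leaving out either shKAT2B glucagon library (adjusted p = 0.0605 for A and 0.0782 for B), shWDR5 glucagon B (0.0777) or the shWDR5 PBS library (0.0667). All shKAT2B libraries lay above the shWDR5 libraries of their treatment in both genes, as they did in 23% of all genes. Thbs1 was lower in shKAT2B by -0.29 ± 0.09 and did not pass (adjusted p = 0.0573), but did with the library set as a term (0.000474), where Ccn1 was also higher (0.32, adjusted p = 0.0292) and 50.4% of all genes were called, and with the replicate block (0.0158), where 36.1% were. In the second library set alone the additive fit called 5 of the 9 for shWDR5 (Ccn1, F3, Ankrd1 and Lats2 lower, Thbs1 higher), 3 for shKAT2B (F3 and Amotl2 lower, Lats2 higher) and 4 between the hairpins (Ccn1, Ankrd1 and Lats2 higher and Thbs1 lower in shKAT2B), where 27.9%, 37.2% and 45.3% of all genes were called. Several of these directions were not those of the first set. With glucagon, the first and second set gave 0.40 and -0.31 for Ccn1 and 0.50 and -0.25 for F3 in shWDR5 minus shNS, and 0.27 and -0.25 for F3 and 0.36 and -0.16 for Amotl2 in shKAT2B minus shNS.

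**Figure D4:**
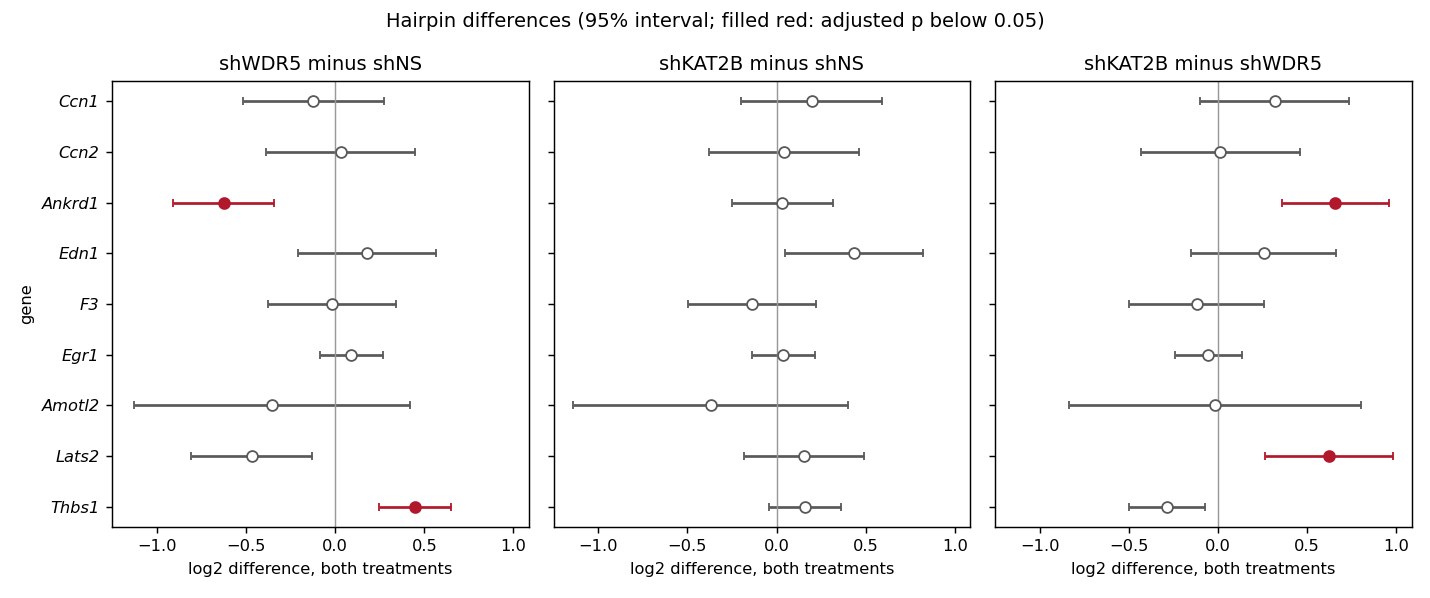
Log2 differences between hairpins over both treatments with 95% intervals, for shWDR5 minus shNS, shKAT2B minus shNS and shKAT2B minus shWDR5. Filled red points passed: Ankrd1 lower and Thbs1 higher in shWDR5, and Ankrd1 and Lats2 higher in shKAT2B than in shWDR5.

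The basal level, in PBS alone, rests on 1 library in each depleted arm against 2 in shNS, the lone library being assumed to vary like the other groups. None of the 9 genes was called in PBS for shWDR5 (0.00871% of all genes) or shKAT2B (0.505%), and at an unadjusted p below 0.05 the counts were 2 and 0. The largest differences in shWDR5 were -0.64 for Ankrd1 (95% interval -1.08 to -0.20), -0.55 for Amotl2 (-1.78 to 0.67) and -0.51 for Lats2 (-1.04 to 0.01). In shKAT2B they were -1.08 for Amotl2 (-2.30 to 0.14) and -0.34 for F3 (-0.97 to 0.29).

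Basal Ankrd1 was, with the library set as a term, lower (-0.65, adjusted p = 0.0232) and basal Thbs1 higher (0.42, adjusted p = 0.00659) in shWDR5, where 8.82% of all genes were called. Basal Amotl2 was lower in shKAT2B (-0.71, adjusted p = 0.00449), where 18.4% were. The replicate block called 6 genes in shWDR5, all but Edn1, F3 and Egr1, and 2 in shKAT2B, Ccn2 and Amotl2, where it called 30.6% and 37.1% of all genes. Amotl2 was the gene in which the arms were apart in PBS and close under glucagon: in the second set it measured 1060, 936 and 648 in PBS and 662, 519 and 592 with glucagon in shNS, shWDR5 and shKAT2B.

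Under glucagon none of the 9 was called for shWDR5 (0.0523% of all genes) or shKAT2B (1.34%), with 2 genes at an unadjusted p below 0.05 for each. For shWDR5 these were Thbs1 (0.53, 95% interval 0.26 to 0.81) and Ankrd1 (-0.58, -0.94 to -0.23). For shKAT2B they were Edn1 (0.70, 0.23 to 1.17) and Thbs1 (0.27, 0.00 to 0.55). With the library set as a term 4 and 5 of the 9 passed, where 23.7% and 27.2% of all genes did: in shWDR5 Ankrd1 and Lats2 lower and Ccn2 and Thbs1 higher, and in shKAT2B Ccn1, Ccn2, Edn1, Lats2 and Thbs1 higher. The replicate block called the same numbers. Between the hairpins Ankrd1 was higher in shKAT2B by 0.79 ± 0.15 (adjusted p = 0.0336), where 6.32% of all genes were called. That call ended on leaving out any library but the lone PBS libraries of the depleted arms (adjusted p up to 0.156, without shWDR5 glucagon B). The library set term and the replicate block each called 4, Ankrd1, Ccn1 and Lats2 higher and Thbs1 lower in shKAT2B, where 39.3% of all genes were. In PBS 0 of the 9 were called between the hairpins (0.287% of all genes; 0 at an unadjusted p below 0.05), and 2, Amotl2 and Thbs1, both lower in shKAT2B, with either of those settings (22% of all genes).

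Markers of other cell types also differed between hairpins. Over both treatments the median log2 difference of the Kupffer cell and leukocyte markers was 0.26 in shWDR5 and 0.47 in shKAT2B (0 of 14 below 0 in each), and that of the endothelial markers was 0.27 and 0.30. Their summed intensities were 8066 to 13638 in shNS, 10233 to 14937 in shWDR5 and 9391 to 17506 in shKAT2B, and for the endothelial markers 4919 to 6830, 5544 to 7436 and 5178 to 8212. Stellate cell and fibroblast markers had medians of 0.07 and 0.17. Of these lists, 2 endothelial markers were called higher in shKAT2B, 2 stellate cell and fibroblast markers lower in shKAT2B and 1 lower in shWDR5. Tagln, a stellate cell and fibroblast marker, was lower with both hairpins and is also among the cytoskeletal targets below. In the fit with the library set as a term more were called higher. In shWDR5 these were 6 Kupffer cell and leukocyte, 2 endothelial and 4 stellate cell and fibroblast markers, against 2156 of all 11480 genes. In shKAT2B they were 9, 7 and 7, against 2464. The counts of stellate cell and fibroblast markers called lower did not change. Of 9 hepatocyte markers 2 were lower in shWDR5 (median -0.06) and 4 in shKAT2B (median -0.42), and of 3 cholangiocyte markers 2 were lower in shWDR5 (median -0.46) and 1 in shKAT2B (median -0.33). With the library set as a term 4 hepatocyte markers were lower and 1 higher in shWDR5, and 8 lower and 0 higher in shKAT2B. Of all 11480 genes 2073 and 2302 were lower in that fit. The part of these cells in the hairpin differences of Ankrd1, Thbs1 and Lats2 was not tested.

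Other genes of the same pathways were set beside the 9. Of 14 further YAP and TEAD targets tested, 1 was called lower under glucagon and 0 higher, where 0.244% and 0.679% of all genes were. Their median was -0.01 against 0.01 over all genes. That of the 9, which were chosen for a fall with glucagon, was -0.78. With the library set as a term 3 of the 14 were called lower, against 164 of all 11480 genes. In shNS 12 of the 14 lay below 0, against 6051 of all 11480. In shWDR5 6 did and in shKAT2B 4, against 5112 and 4313. Their medians in the 3 arms were -0.09, 0.07 and 0.10, and -0.09, -0.05 and -0.06 with the library set as a term. Nuak2, also among the 14, had a shared difference of -0.72 and was not called over the 10 libraries. Gadd45a, a stress-induced cell cycle inhibitor, fell by 0.50 on the log2 scale (adjusted p = 0.00635), a call that ended without shKAT2B PBS A (0.0704). Igfbp3, an insulin-like growth factor binding protein, stood lower in every arm without overlap at -0.17 and did not pass (adjusted p = 0.962).

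Of 20 cytoskeletal targets of SRF and MRTF none was called under glucagon, with a median of -0.02. Srf itself was lower in every arm without overlap (-0.26 ± 0.05, adjusted p = 0.0839). It measured 826 and 861 in shNS PBS against 676 and 755 with glucagon, 657 in shWDR5 PBS against 545 and 534, and 564 in shKAT2B PBS against 468 and 465. With the library set as a term it was called (-0.25, adjusted p = 0.00774).

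Of 13 other immediate early genes with SRF sites, 6 were lower and 2 higher in every arm without overlap, where 1.84% and 2.83% of all genes were. In each direction 1 was called, where 0.244% of all genes were lower and 0.679% higher. Ier2 fell by 0.42 (adjusted p = 0.0186), a call that ended on leaving out any of 6 of the 10 libraries, with the highest adjusted p (0.146) when the shKAT2B PBS library was out. Nr4a1, a nuclear receptor with cyclic AMP response elements that is also among the cyclic AMP genes, rose by 3.28 (adjusted p = 1.72e-05). Fosl1, an AP-1 subunit, stood at -0.54 and Fosb at 0.60, and neither passed (adjusted p = 0.279 and 0.375). With the library set as a term 5 of the 13 were called lower, Fosl1 among them, and 2 higher, Fosb among them. Of all 11480 genes 164 were lower and 221 higher in that fit. The 9 cyclic AMP response genes all rose, with a median of 2.47.

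Of 19 core genes of the Hippo pathway tested beside Amotl2 and Lats2, none was called under glucagon (median 0.02), and Tead4 was lower in every arm without overlap at -0.18 (adjusted p = 0.694).

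Hairpins changed several of these pathway genes. Over both treatments 7 of the 20 cytoskeletal SRF and MRTF targets were lower and 0 higher in shWDR5, where 6.17% and 4.69% of all genes were, and 5 were lower and 1 higher in shKAT2B, where 8.95% and 6.66% were. Cnn1, the smooth muscle actin binding protein calponin 1, fell by 0.86 in shWDR5 (adjusted p = 0.000730) and by 1.18 in shKAT2B (adjusted p = 4.19e-05), and no omitted library ended either call. It measured 1361 to 1563 in the shNS libraries, 771 to 809 in shWDR5 and 630 to 639 in shKAT2B, with no overlap and no difference between treatments beyond these ranges.

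The muscle actins Acta1 and Actc1 fell by 0.78 and 0.79 in shWDR5 (adjusted p = 0.0321 and 0.0178), and Acta1 by 0.75 in shKAT2B (adjusted p = 0.0282). The calls of Acta1 ended on leaving out any of 7 and of 5 libraries, and the highest adjusted p were 0.109 and 0.0854, each without the lone PBS library of the arm. That of Actc1 ended on leaving out shWDR5 glucagon A, shNS glucagon A or the shWDR5 PBS library (0.114). Srf was lower in shWDR5 (-0.39, adjusted p = 0.00817, and 0.0589 without shWDR5 PBS A) and in shKAT2B (-0.60, adjusted p = 0.000704), where no omitted library ended the call. Filip1l, the higher gene in shKAT2B, stood at 0.39 (adjusted p = 0.00501).

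In the Hippo pathway 3 of the 19 genes were lower and 1 higher in shKAT2B, where 8.95% and 6.66% of all genes were. In shWDR5 2 were lower and 1 higher, where 6.17% and 4.69% of all genes were. Tead1, a DNA-binding partner of YAP, fell by 1.10 (adjusted p = 0.00808, and 0.0789 without shKAT2B PBS A), from 1978 to 2419 in shNS to 838, 1585 and 867 in shKAT2B. Wwtr1, which encodes TAZ, fell by 0.53 (adjusted p = 0.00514), from 1184 to 1389 in shNS to between 815 and 929, and no omitted library ended its call. Wwc1 (KIBRA), an activator of LATS, fell by 0.78 (adjusted p = 0.0484) and Yap1 rose by 0.20 (adjusted p = 0.0414), calls that ended on leaving out any of 7 and of 8 libraries. In shWDR5 Lats1 fell by 0.48 (adjusted p = 0.0363), Mob1b, its activating partner, by 0.44 (adjusted p = 0.00839), and Map4k4 rose by 0.24 (adjusted p = 0.0134). Mob1b kept its call in every leave-out fit, Lats1 lost it without any of 6 libraries and Map4k4 without shWDR5 glucagon B, shNS glucagon A or the shWDR5 PBS library (0.111).

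More of the 14 further YAP and TEAD targets were called for the hairpins with the library set as a term than without it. That fit called 0 lower and 4 higher in shWDR5, against 2073 and 2156 of all 11480 genes. For shKAT2B it called 2 lower and 8 higher, against 2302 and 2464. Without that term few were called. In shWDR5 0 of 14 were lower and 2 higher, where 6.17% and 4.69% of all genes were. The 2 were the receptor tyrosine kinase Axl (0.41, adjusted p = 0.0217) and Gadd45a (0.40, adjusted p = 0.0134). In shKAT2B 1 was lower, Asap1 (-0.43, adjusted p = 0.00233), and 1 higher, Igfbp3 (0.40, adjusted p = 0.0294), where 8.95% and 6.66% of all genes were. Gadd45a lost its call without the shWDR5 PBS library (0.0595) or glucagon library B of that arm, Axl without any of 4 libraries, the shNS glucagon A and the 3 shWDR5 libraries, and Igfbp3 without glucagon library B of shKAT2B, the PBS library of that arm (0.126) or shNS PBS A. Among the immediate early genes Fosl1 rose in shWDR5 by 0.81 (adjusted p = 0.0210) and Mcl1, a survival factor, rose with both hairpins, by 0.34 (adjusted p = 0.00906) and 0.38 (adjusted p = 0.00316). The call of Fosl1 ended without glucagon library B of shWDR5 (0.0815), the PBS library of that arm or shNS glucagon A, and that of Mcl1 in shWDR5 without shWDR5 PBS A (0.0672).

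**Figure D5:**
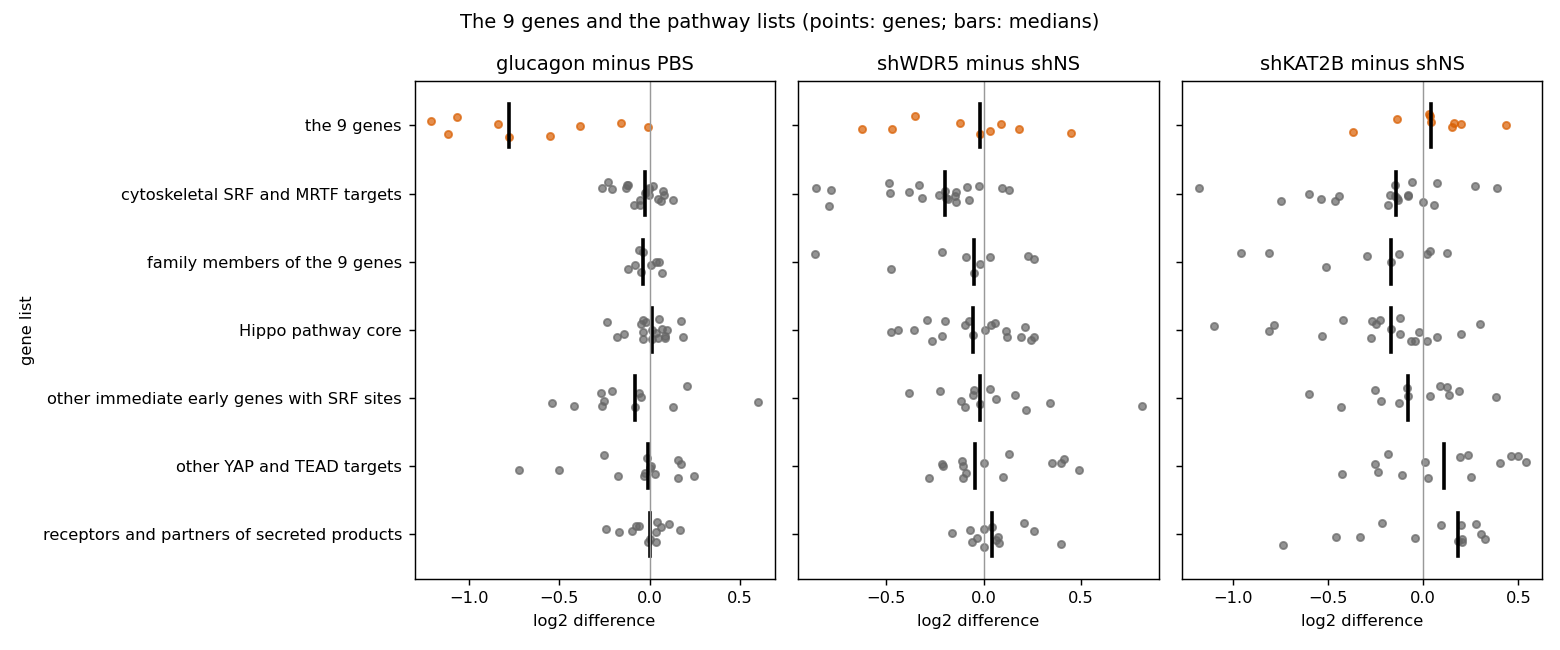
Log2 differences of the 9 genes (orange) and of the genes of each pathway list (grey; bars are medians) for glucagon minus PBS, shWDR5 minus shNS and shKAT2B minus shNS over both treatments; the 9 genes are left out of the other lists, Srf is in 2 of the lists drawn, and Nr4a1 at 3.28 lies outside the left panel. The 9 genes lie to the left under glucagon, with a median of -0.78, while the pathway lists centre near 0. Since the 9 were chosen for a fall with glucagon, nothing is read from that contrast. The lowest cytoskeletal SRF and MRTF targets lie to the left with both hairpins.

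Genes whose pattern over the 10 libraries was most like the mean of the 9 were sought among all other genes tested, by Pearson correlation. Rnd3 had the highest (0.96), followed by Cdc42ep3 (0.94), Tnfaip3 (0.93), Junb (0.91) and Ccl2 (0.90), and then Klf7, Plk2, Klf6, Orai1 and Chic2. With the mean of each library set removed, Tnfaip3 (0.97) and Rnd3 (0.97) led, followed by Rsl1, Bcar1, Chka, Cdc42ep3, Nuak2, Ccl2, Irf2bpl and Tefm. The shared glucagon difference was -0.81 for Tnfaip3, -0.77 for Rnd3, -0.72 for Nuak2 and -0.62 for Ccl2. Of the 9 genes themselves Ccn1 followed their mean most closely (0.99), and Lats2 (0.54) and Thbs1 (0.01) least. These correlations rest on 10 libraries that share arms, treatments and library sets, and are descriptions.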

How the data were processed

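The authors deposited 1 table of intensity on a linear scale for 26913 array features in 10 libraries, made with Affymetrix Expression Console 1.1.1 per the submitters' processing notes. How they were normalized is not given in the sources used. Of the features 17873 carried 1 gene symbol, 1128 several and 7912 none. Genes with several features were represented by that of highest mean. Tests ran on log2(intensity + 1) after dropping the 30 percent of genes with the lowest means, which left 11480.

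R 4.3.3 and limma 3.58.1 were used, with lmFit and a trended eBayes. An additive model of hairpin and treatment gave the shared glucagon difference and the hairpin differences over both treatments (6 residual degrees of freedom), and a model of the 6 groups gave the rest (4). Lone libraries were taken to vary as the replicated groups do. All tests were two-sided with Benjamini-Hochberg adjustment over the 11480 genes, the threshold for a call was an adjusted p of 0.05, and errors after ± are model standard errors. No label names separate animals, so p-values measure only spread between libraries, which may be technical. The code was tested on simulated data.

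The replicate letters A and B pair the libraries of the 4 groups that hold both: the correlations of their deviations ran from 0.72 to 0.84. Library sets were read from the same libraries, as the sign of the first residual component of the additive model, so fits that contain them are no independent check. Python 3.11.15 with pandas 2.3.3, numpy 2.4.6 and matplotlib 3.10.9 was used for promoters and plots.

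The 9 genes, the pathway and marker lists and the settings were chosen with earlier results of these data known. The genes named are the 9, Kat2b and Wdr5; of each pathway list up to 3 lowest and 3 highest under glucagon without overlap in any arm, and up to 3 per direction with the largest change among those called for a hairpin; and the 10 genes of highest correlation with the mean of the 9, with and without set means. Results of 1 further pathway list are not reported here.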

Additional observations from a re-analysis of the deposited data

Results flagged for a closer look

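Lats2 and Thbs1 stood out because glucagon libraries lay on opposite sides of PBS in different arms. Lats2 was lower with glucagon in both shWDR5 libraries and higher in both shKAT2B libraries, a difference of the response of 0.42 ± 0.31 (shKAT2B minus shWDR5) that did not pass (adjusted p = 1) and was 0.53 within the second library set. Thbs1 was lower in both shNS libraries and higher in both shKAT2B libraries, a difference of 0.27 ± 0.18 (shKAT2B minus shNS) that did not pass (adjusted p = 0.999) and was 0.22 within the second set. In each depleted arm the PBS side of this rests on 1 library.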

How the results depend on the processing

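Fits without each library in turn are given below. Among the other settings planned, the count of the 9 genes called moved by over 1.5 times with 3. It did not with median centring, quantile normalization, fits to 2 arms alone, another or no filter, another or no pseudocount, averaged features, or no trend. Over both treatments, median centring and quantile normalization added a call of Lats2 for shWDR5. Median centring also added Thbs1 for shKAT2B minus shWDR5 (adjusted p = 0.0153). The share of all genes called after either normalization is not given here. With the replicate block 2 genes were called for a changed glucagon response in shWDR5 (4.75% of all genes) and 5 in shKAT2B (12.1%). For these hairpins it called 6 (30.6%) and 2 (37.1%) in PBS, and 4 (23.7%) and 5 (27.2%) under glucagon. With the library set as a term 3 were called for shKAT2B over both treatments, all higher (21.5% of all genes were called higher). It called 4 for shKAT2B minus shWDR5 over both treatments (50.4%). For shWDR5 and shKAT2B it called 2 (8.82%) and 1 (18.4%) in PBS, and 4 (23.7%) and 5 (27.2%) under glucagon. In the second library set alone, with 1 library a group, the additive fit called 5 for shWDR5, 3 for shKAT2B and 4 between the hairpins; interactions there have no test. Without each library in turn, 8 to 9 genes were lower with glucagon by the shared difference and 6 to 7 in each arm. Calls over both treatments numbered 0 to 3 for shWDR5, 0 for shKAT2B and 1 to 3 between hairpins, and 0 for each hairpin against shNS in PBS and under glucagon and for each difference of response; the call of Ankrd1 between hairpins under glucagon is given with its result. The differences of the 9 genes called over both treatments in all 10 libraries kept their sign under every setting run. Basal comparisons have 1 PBS library in each depleted arm, and leaving it out leaves no basal value. Intervals for the difference of response (shKAT2B minus shNS) reach over 1 log2 unit for Ccn1, Ccn2, Ankrd1, Edn1, F3, Amotl2 and Lats2. Loss of a fall of that size in these genes would not be detectable here. Signal over background cannot be given from this table.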

Other observations

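Relatives and partners of the 9 genes were set beside them. Of 9 tested relatives none was called under glucagon, where the median was -0.03, and of 13 tested receptors and partners none was either, where 0.244% of all genes were lower and 0.679% higher. Ankrd23, a relative of Ankrd1, was lower with shWDR5 (-0.87, adjusted p = 0.00687, and 0.0504 without shWDR5 PBS A) and with shKAT2B (-0.96, adjusted p = 0.00247). Ankrd1 itself was lower with shWDR5 (-0.63) and stood at 0.03 with shKAT2B. Of the receptors and partners 4 were lower and 1 higher with shKAT2B, where 8.95% and 6.66% of all genes were, and 0 lower and 1 higher with shWDR5, where 6.17% and 4.69% were. Nab1, a corepressor of EGR factors, fell by 0.74 (adjusted p = 0.000210), from 2647 to 2759 in shNS to 1499, 1698 and 1675, and no omitted library ended its call. Cd36, a thrombospondin receptor and fatty acid carrier, fell by 0.46 (adjusted p = 0.0236) and the integrin gene Itgav by 0.33 (adjusted p = 0.0173); both calls ended without glucagon library B of shKAT2B, shNS glucagon A or the lone shKAT2B PBS library (0.166 and 0.142). The thrombin receptor gene F2r rose with shKAT2B by 0.28 (adjusted p = 0.00990).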
